A study of Homo sapiens with 4 samples.

Results

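The 8 genes described here encode the ULK1 complex, the first kinase complex of autophagy, and the membrane proteins ATG9A, ATG2A and ATG2B. They were chosen by name, as ULK1, ULK2, RB1CC1, ATG13, ATG101, ATG9A, ATG2A and ATG2B, from a table of 60676 genes, and all 8 symbols matched 1 protein-coding gene each. RNA came from U2OS, an established human osteosarcoma line. The study asked which mRNAs come down with LC3B from a nuclear lysate. In this assay (native RNA immunoprecipitation) an antibody is added to the lysate without crosslinking, and the polyadenylated RNA it brings down is sequenced. There were 4 groups of 1 library each. An LC3B antibody was used for the LC3B pull-down and a non-specific IgG for the IgG pull-down, and an input library made without antibody belongs to each pull-down. No treatment is named in the labels, and they do not say whether the 2 pull-downs came from the same culture. With 1 library a group, differences between the groups have no replicate check and were not tested across samples; intervals cover counting error only.

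ULK1 and its paralog ULK2 are serine/threonine kinases that start autophagosome formation. They act in a complex with the scaffold RB1CC1 (also called FIP200), with ATG13, which links kinase and scaffold, and with ATG101, which binds and stabilises ATG13. ATG9A is a lipid scramblase carried on vesicles that seed the new membrane, and ATG2A and ATG2B are rod-shaped proteins that bring lipid to it. LC3B is coupled to that membrane further downstream, and autophagy proteins of this group act mainly in the cytoplasm.

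Reads of the mitochondrial genome took 22.8% and 20.8% of the IgG and LC3B inputs but 1.76% and 0.774% of the pull-downs, so levels are given in CPM, the usual library-scaled read count, with the total taken over reads outside the 37 mitochondrial genes. These totals ran from 8404123 to 10375786 reads. CPM is a share of the reads of a library, so recovery here means a relative share and not an amount of RNA. The inputs and the LC3B pull-down held reads of 22947 to 23915 genes, the IgG pull-down of 14440. The IgG pull-down thus stood apart, and comparisons of the LC3B pull-down with its input are the ones that do not use it. These are bulk lysates, in which a change in few cells and one in all cells cannot be told apart. Of the bone lineage markers checked, SPARC, COL1A1, RUNX2 and ALPL had at least 82 reads in every library, whereas COL1A2 and BGLAP had at most 3 and SP7 and IBSP had 0 throughout. Of the markers of other cell types, CD3E and INS had 0 reads, and ALB, HBB, PTPRC and PECAM1 had at most 8. GFAP had 1 to 18 and the epithelial marker EPCAM 128 to 253.

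Of the 8 genes, 7 reached a mean level of 1 CPM and ATG2A, with 0.458 CPM, did not; 15431 genes in all passed. In the inputs the genes fell into 2 tiers. RB1CC1, ATG13, ATG101 and ATG9A had 299 to 777 reads in each input, while ULK1, ULK2, ATG2A and ATG2B had 4 to 37. Since a long transcript gathers more reads than a short one, genes are ordered by the authors' deposited TPM, which divides by transcript length. ATG101 stood highest, at 30.23 TPM in the input of IgG and 28.18 in that of LC3B. RB1CC1 (13.67 and 16.93) and ATG13 (15.09 and 16.51) exchanged places between the inputs and cannot be ordered, and ATG9A followed at 8.28 and 11.12. Below them came ULK2 at 0.77 and 1.21, then ULK1 (0.36 and 0.70) and ATG2A (0.50 and 0.24), which also exchanged places, and ATG2B at 0.12 and 0.11. These genes of few reads cannot be firmly ordered by TPM, because the transcript length assigned to some of them was unstable. The TPM of ULK2 rose from the IgG input to the LC3B input while its reads went from 14 to 10. ULK1 had more reads than ULK2 in both inputs (19 and 37). The scaffold, the adaptor subunits and ATG9A were thus the measurable part of this machinery, and both kinases and both lipid-transfer genes rest on few reads.

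**Figure D1:**
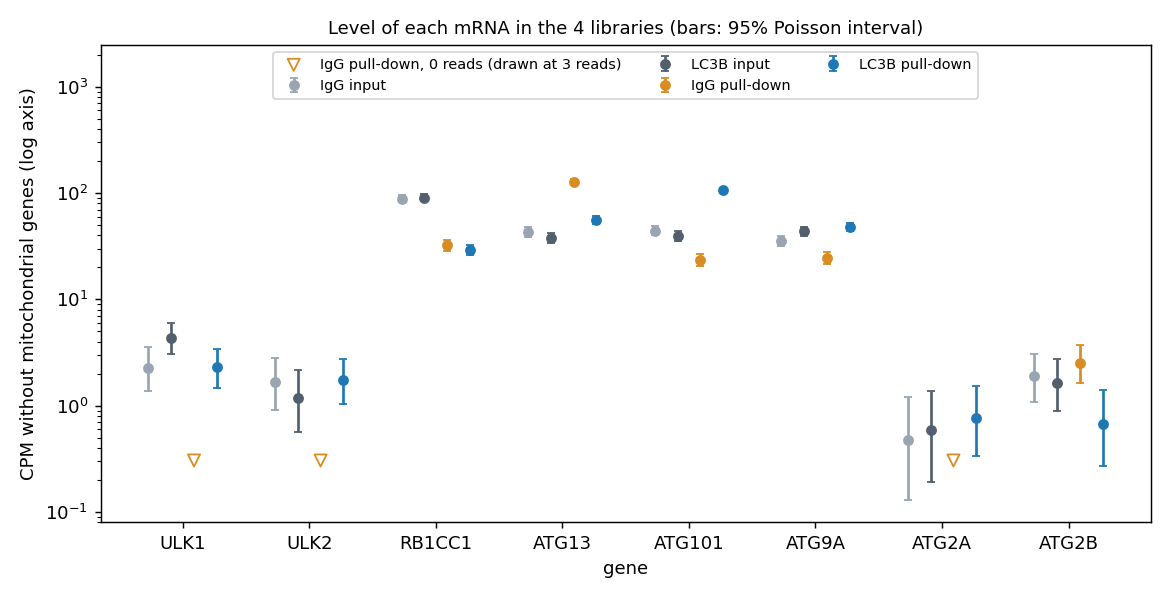
Level of each of the 8 mRNAs in CPM without mitochondrial genes (log axis) in the 4 libraries, with exact 95% Poisson intervals; open triangles stand for 0 reads and are drawn at 3 reads. RB1CC1 lies lower in both pull-downs, ATG13 is highest in the IgG pull-down, ATG101 is highest in the LC3B pull-down, and ULK1, ULK2 and ATG2A have no read with IgG.

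ATG101 was the member recovered most clearly with LC3B. Its gene (ENSG00000123395) lies on chromosome 12 (52069246 to 52077494, plus strand, hg38). The inputs of IgG and LC3B held 373 and 339 of its reads, and the pull-downs 231 with IgG and 1096 with LC3B, or 44.4, 39.7, 23.5 and 106 CPM. The LC3B pull-down was thus above the other 3 libraries and the IgG pull-down below both inputs, and no 2 of these Poisson intervals overlap except those of the inputs. ATG101 was 2.66-fold higher in the LC3B pull-down than in its input (95% exact counting interval 2.35 to 3.02) and 4.49-fold higher than in the IgG pull-down (3.89 to 5.20). With IgG it stood at 0.530 of its input (0.448 to 0.626). A gene was called higher where the lower bound of the interval was at least 2, and lower where the upper bound was at most 0.5; ATG101 was called higher in both LC3B comparisons, which share the LC3B library. Of the 15431 genes, 103 (0.667%) met both conditions, and 98.8% had a smaller ratio of LC3B pull-down to input than ATG101. Over the IgG pull-down 75.0% had a smaller ratio (all such ranks are of log2 values with 0.5 CPM added).

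RB1CC1 was lower than input with either antibody. The gene (ENSG00000023287) is on chromosome 8 (52622458 to 52745843, minus strand). It had 745 and 777 reads in the IgG and LC3B inputs (88.6 and 91.0 CPM) against 316 with IgG and 303 with LC3B (32.2 and 29.2 CPM). The inputs nearly coincide, and both pull-downs lie well below them and overlap each other within counting error. The folds over input were 0.321 with LC3B (0.280 to 0.367) and 0.363 with IgG (0.317 to 0.414), both called lower. Between the pull-downs the fold was 0.908 (0.773 to 1.07), so LC3B and IgG did not differ beyond counting error in these libraries. In deposited TPM the log2 fold between the pull-downs was -0.79, against -0.14 in reads, and was not called either. With mitochondrial reads left in the totals the IgG call was lost, at a log2 fold of -1.11 against -1.46. Only 1.57% of the genes had a lower ratio of LC3B pull-down to input, against 32.6% for IgG.

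ATG13, the partner of ATG101, was the one member called higher in the IgG pull-down. Its gene (ENSG00000175224) is on chromosome 11 (46617527 to 46674818, plus strand). Reads numbered 363 and 322 in the IgG and LC3B inputs, 1253 with IgG and 583 with LC3B, or 43.2, 37.7, 128 and 56.2 CPM. Both pull-downs lay above both inputs, and IgG lay above LC3B. Over its input ATG13 was 2.95-fold higher with IgG (2.63 to 3.33), a call, and 1.49-fold with LC3B (1.30 to 1.71), no call. The LC3B pull-down was called lower than the IgG pull-down, at 0.441 (0.399 to 0.486). A comparison of the LC3B pull-down with its input alone would thus place ATG13 above 1 although its share of reads was larger with the background antibody.

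Of the 4 abundant genes ATG9A (ENSG00000198925) stayed closest to its input. It lies on chromosome 2 (219219380 to 219229717, minus strand) and had 299 and 374 reads in the inputs of IgG and LC3B, 240 with IgG and 502 with LC3B, or 35.6, 43.8, 24.4 and 48.4 CPM. The LC3B pull-down overlapped its own input within counting error, and the IgG pull-down was the lowest. The fold over input was 1.11 with LC3B (0.965 to 1.27) and 0.687 with IgG (0.577 to 0.817). Between the pull-downs it was 1.98 (1.69 to 2.32), with a lower bound short of 2, so ATG9A was called in no comparison.

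The kinases ULK1 (ENSG00000177169, chromosome 12, 131894622 to 131923150, plus strand) and ULK2 (ENSG00000083290, chromosome 17, 19770829 to 19867936, minus strand) shared the absence of reads with IgG. ULK1 had 19 and 37 reads in the IgG and LC3B inputs, 0 with IgG and 24 with LC3B. ULK2 had 14 and 10 in the inputs, 0 with IgG and 18 with LC3B. For point folds the 0 reads with IgG were set to 3, or 0.305 CPM. ULK1 was then 7.57-fold and ULK2 5.68-fold higher with LC3B. The lower interval bounds, computed from the 0 reads themselves, were 5.70 and 4.16, so both were called. Neither was called over the LC3B input: ULK1 stood at 0.534 (0.306 to 0.917) and ULK2 at 1.48 (0.649 to 3.59). The value of ULK1 turns on which input is used, since the inputs themselves differed by 1.92-fold (1.07 to 3.53), and against the IgG input its log2 fold was 0.03 in place of -0.90. Loss from the IgG pull-down was common at this level. Among genes within 1.5-fold of the mean input CPM of ULK1, 943 of 2033 (46.4%) had 0 reads with IgG, and 1175 of 2038 (57.7%) did at the level of ULK2. In the LC3B pull-down 0.492% and 1.96% of the same genes had 0 reads.

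The ATG2 paralogs had the fewest reads and neither was called between the pull-downs. ATG2A (ENSG00000110046, chromosome 11, 64894546 to 64917211, minus strand) had 4 and 5 reads in the IgG and LC3B inputs, 0 with IgG and 8 with LC3B. With 3 reads set for IgG its fold between the pull-downs was 2.52. The lower interval bound was 1.62, and it was not called. ATG2B (ENSG00000066739, chromosome 14, 96279195 to 96363341, minus strand) had 16 and 14 reads in the IgG and LC3B inputs, 25 with IgG and 7 with LC3B. Its fold between the pull-downs was 0.265 (0.0968 to 0.631) and its fold over the LC3B input 0.412 (0.141 to 1.09), neither called. ATG2B kept reads with IgG at a level at which 55.8% of genes had none. At the level of ATG2A, 73.3% had none.

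**Figure D2:**
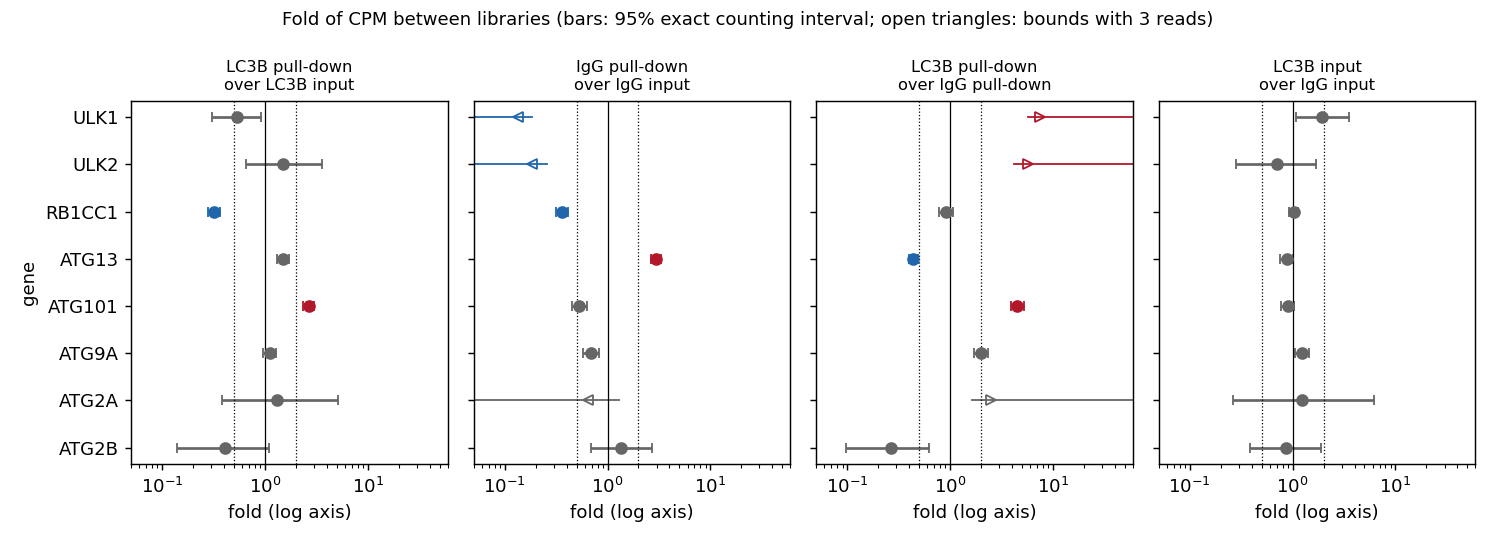
Fold of CPM for each gene in 4 comparisons (log axis) with exact 95% counting intervals. Red marks genes called higher, blue genes called lower and grey genes not called. Dotted lines stand at 0.5 and 2, and open triangles mark folds with 0 reads set to 3. ATG101 is red and RB1CC1 blue over the LC3B input, ATG13 is red over the IgG input and blue between the pull-downs, and no gene is called between the inputs.

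Counted over the 8 genes, LC3B over IgG called 3 higher (ULK1, ULK2 and ATG101) and 1 lower (ATG13). Over all genes that passed, 33.8% were called higher and 9.45% lower in this comparison. Among the 12007 genes whose mean input CPM lay between 1.42 and 89.8, the range of the 7 genes, these shares were 39.3% and 8.12%. The count of genes above IgG was therefore close to the background share. The median log2 ratio, with 0.5 CPM added, was 1.16 for the 8 genes, 0.41 for all genes and 0.68 in the input range. Medians of the 8 genes include ATG2A, which did not reach 1 CPM, while the genes set beside them did. Here and over the LC3B and IgG inputs ATG2A was among the middle values that set the median (1.35 here, beside 0.97 for ATG9A). The median of the 8 genes between the pull-downs was 0.67 in deposited TPM and 1.57 with 0.1 CPM added. Over the LC3B input 1 of 8 was called higher (ATG101) and 1 lower (RB1CC1), where 1.40% and 4.48% of all genes and 1.28% and 3.53% of those in the same input range were. The median log2 ratio was 0.19, against 0.01 for all genes and 0.02 in the input range, and it turned to -0.19 in deposited TPM and stood at 0.43 with mitochondrial reads in the totals.

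Over the IgG input 1 of 8 was called higher (ATG13) and 3 lower (ULK1, ULK2 and RB1CC1), with 9.69% and 33.6% of all genes and 8.79% and 39.3% of those in the input range. The share of lower calls was again close to the background. The median log2 ratio was -0.93, against -0.43 for all genes and -0.64 in the input range. Between the inputs 0 of 8 were called in either direction, with 0.136% of all genes higher and 0.156% lower, and the median was -0.06 against 0.02 for all genes; in deposited TPM it was 0.18. Leaving the mitochondrial reads in the totals moved the median of all genes to 0.32 over the LC3B input and to -0.10 over the IgG input, and median-of-ratios scaling moved it to 0.30 between the pull-downs.

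An input-corrected ratio sets recovery from input with LC3B against recovery from input with IgG; 0.5 was added to every count, and the interval is log-normal. It used all 4 libraries. ATG101 had a ratio of 5.02 (4.09 to 6.15), called higher, and 77.6% of all genes had a smaller one. ATG9A stood at 1.61 (1.30 to 2.0), RB1CC1 at 0.885 (0.734 to 1.07), ATG13 at 0.505 (0.422 to 0.604) and ATG2B at 0.322 (0.110 to 0.946), none of them called. For genes with 0 reads with IgG the ratio depends on the added count: ULK2 was called higher with a lower bound of 2.65, and ULK1 (1.41) and ATG2A (0.596) were not. The 2 higher and 0 lower calls of 8 compare with 29.1% and 7.58% of all genes.

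**Figure D3:**
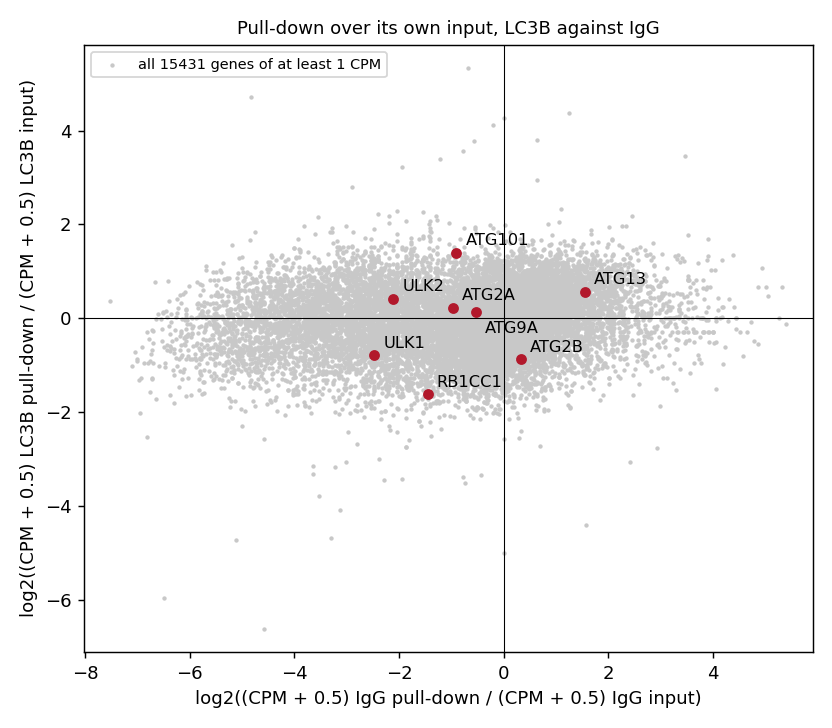
Log2 ratio of pull-down to its own input, with 0.5 CPM added, for IgG (horizontal) and LC3B (vertical); grey points are the 15431 genes of at least 1 CPM and red points the 8 genes, of which ATG2A lies under 1 CPM. ATG101 sits high at 1.40 with LC3B and left of 0 with IgG (-0.90), ATG13 far right at 1.55, and RB1CC1 low at -1.62 and left at -1.45.

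The balance between subunits can be read within a library, where no scaling enters. ATG13 and ATG101 had almost equal reads in the inputs, with ratios of ATG13 to ATG101 of 0.973 and 0.95. With IgG the ratio was 5.42 and with LC3B 0.532. It changed 5.57-fold from the IgG input to the IgG pull-down (95% log-normal counting interval 4.56 to 6.82) and to 0.560 of its input value with LC3B (0.467 to 0.672). These 2 changes go in opposite directions. RB1CC1 had 2.0 and 2.29 reads for each read of ATG101 in the IgG and LC3B inputs, 1.37 with IgG and 0.276 with LC3B. From input to LC3B pull-down this ratio changed to 0.121 of its value (0.101 to 0.144), and with IgG to 0.685 (0.555 to 0.845). The ratio of ATG101 to ATG9A was 1.25 and 0.906 in the inputs, 0.963 with IgG and 2.18 with LC3B. Between the inputs that ratio already differed, at 0.727 (0.588 to 0.898), so 2 libraries made without antibody differed by more than counting error. The change with LC3B, 2.41-fold over its own input (2.01 to 2.89), was larger than that. The LC3B input held the lower of the 2 input ratios, so against the IgG input the change would be smaller.

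In TPM the order of the 4 abundant genes differed between libraries. In the IgG pull-down ATG13 led with 59.95 TPM, followed by ATG101 (18.06), RB1CC1 (11.25) and ATG9A (8.62). In the LC3B pull-down ATG101 led with 84.59, followed by ATG13 (25.13), ATG9A (16.95) and RB1CC1 (6.57). RB1CC1 was thus last of the 4 with LC3B, and ATG9A was last in both inputs and with IgG.

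The deposited TPM also carried a transcript length that was not the same in every library. Reads per TPM is proportional to the mean length assigned to a gene's transcripts. Relative to the IgG input it stayed between 0.998 and 1.01 in the central 95% of 239 genes that have 1 annotated transcript and at least 200 reads in every library. RB1CC1, with 10 annotated transcripts, had 54.5 and 45.9 reads per TPM in the inputs of IgG and LC3B, 28.1 with IgG and 46.1 with LC3B. Its value with IgG was 0.522 of that in the IgG input, and 1.22% of the genes with more than 1 transcript and as many reads lay lower. In TPM its fold of IgG pull-down over input was therefore a log2 of -0.64 in place of -1.46, and the gene was not called there. ATG101, with 7 transcripts, varied only between 0.993 and 1.05. Its log2 fold between the pull-downs was 2.17 in reads and 2.21 in TPM, and over the LC3B input 1.41 and 1.24. Over the IgG input it was -0.92 in reads, not called, and -1.11 in TPM, called lower there without an interval. ATG13, with 30 transcripts, lay at 0.826 to 0.957 and ATG9A, with 21, at 0.782 to 0.949. Whether these values reflect different isoforms in the libraries was not tested.

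**Figure D4:**
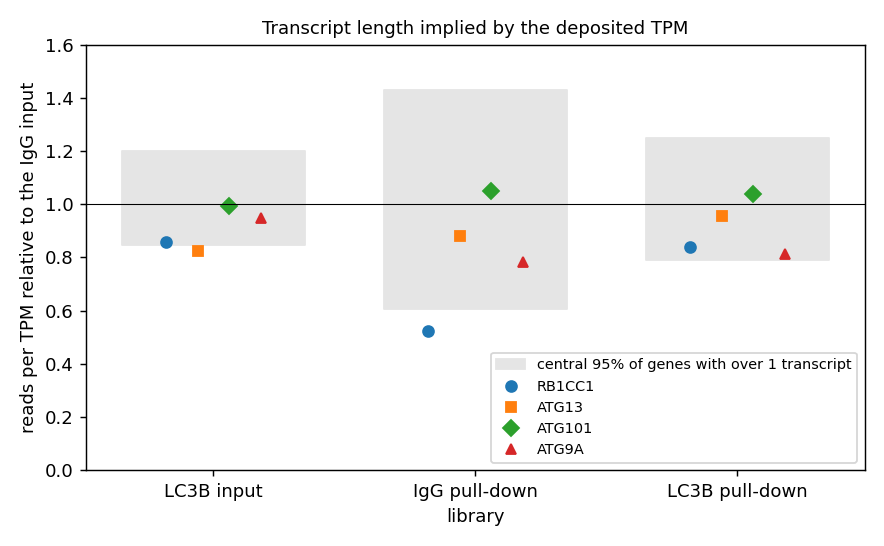
Reads per deposited TPM, relative to the IgG input and to genes with 1 annotated transcript, for the 4 abundant genes in the other 3 libraries; grey bands are the central 95% of 4984 genes with more than 1 transcript. RB1CC1 falls to 0.522 in the IgG pull-down, under the band's lower edge of 0.605, and ATG101 stays near 1 throughout.

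Some of these genes share sequence positions with a neighbour, and the tables do not say whether strands were counted apart. The last 654 bases of ATG101 overlap AC025259.1, a long non-coding RNA of the opposite strand (chromosome 12, 52076841 to 52082084). It had 113 and 116 reads in the IgG and LC3B inputs, 80 with IgG and 356 with LC3B, and was called higher over the IgG pull-down at 4.21 (3.30 to 5.44) and over the LC3B input at 2.53 (2.04 to 3.14). Its reads per read of ATG101 were 0.303, 0.342, 0.346 and 0.325, nearly the same in all 4 libraries. If strands were counted together, reads of the 2 genes cannot be told apart in the shared stretch. HARBI1, on the opposite strand, overlaps the first 383 bases of ATG13. It had 79 and 104 reads in the IgG and LC3B inputs, 223 with IgG and 122 with LC3B, and its fold of 2.41 over the IgG input (1.86 to 3.16) was not called. HARBI1, like ATG13, was thus highest with IgG.

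Other neighbours did not run in parallel. ANKZF1 starts 65 bases from ATG9A on the opposite strand and had 112 and 119 reads in the IgG and LC3B inputs, 24 with IgG and 183 with LC3B. It was called lower over the IgG input at 0.183 (0.113 to 0.287), where ATG9A stood at 0.687. AC068946.2, a gene of the same strand that shares 3359 bases with ATG9A, had 23 and 4 reads in the inputs of IgG and LC3B, 6 with IgG and 43 with LC3B. It was called higher over the LC3B input at 8.85 (3.22 to 33.9) and over the IgG pull-down at 6.79 (2.88 to 19.5). The first value rests on 4 reads in the LC3B input, which stood at 0.171 of the IgG input (0.0430 to 0.501). AC068946.2 had at most 0.0857 reads per read of ATG9A. GSKIP, 110 bases from ATG2B on the opposite strand, had 381, 382, 252 and 368 reads, and its fold with LC3B over IgG was 1.38 (1.17 to 1.63) where that of ATG2B was 0.265. PPP2R5B, 341 bases from ATG2A on the opposite strand, had 54 and 86 reads in the IgG and LC3B inputs, 178 with IgG and 116 with LC3B. It was called higher over the IgG input at 2.82 (2.07 to 3.90), where ATG2A had 0 reads with IgG. AC131009.4, inside ULK1 on the same strand, had 1 and 9 reads in the IgG and LC3B inputs and 0 in both pull-downs. It was called lower over the LC3B input, with an upper interval bound of 0.417.

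**Figure D5:**
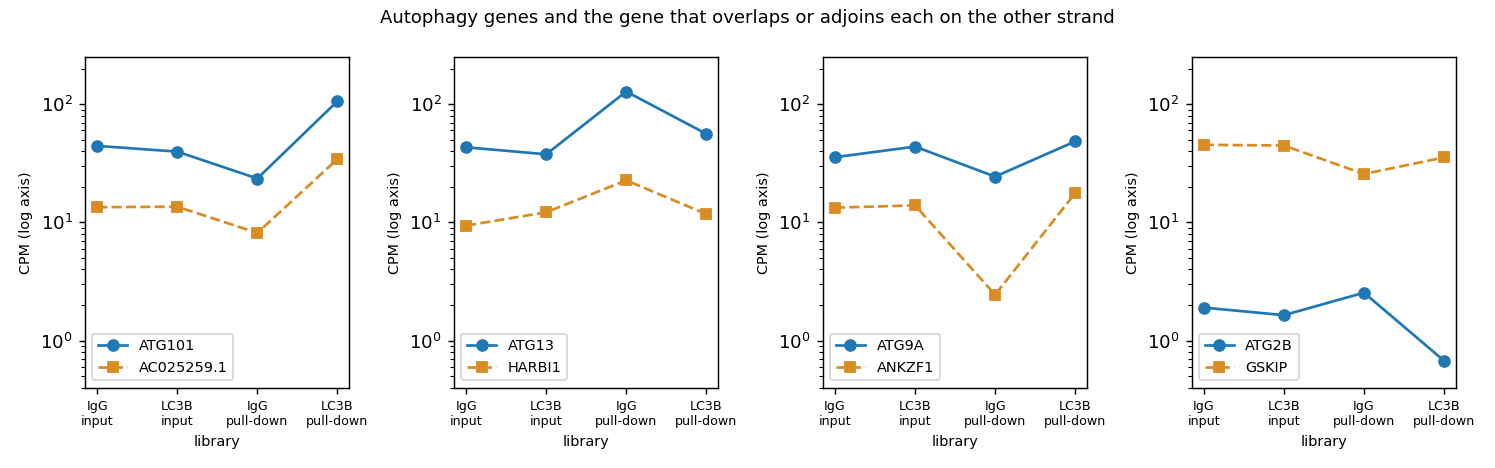
CPM (log axis) in the 4 libraries for 4 of the genes (circles) and for a gene on the opposite strand that overlaps or adjoins each (squares); lines only join values of 1 gene. AC025259.1 runs parallel to ATG101 and HARBI1 peaks with ATG13 in the IgG pull-down, whereas ANKZF1 and GSKIP depart from ATG9A and ATG2B.

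Of 64 other autophagy genes in 7 lists, 62 reached 1 CPM. LC3B over IgG called 24 higher and 4 lower, the IgG pull-down over its input 3 higher and 23 lower, the LC3B pull-down over its input 0 higher and 2 lower, and the inputs 0. For all genes the shares were 33.8% higher and 9.45% lower between the pull-downs and 9.69% and 33.6% over the IgG input, so the listed genes were called about as often as others between the pull-downs. Over the LC3B input 1.40% of all genes were called higher, so 0 of 62 is close to the background as well. Among the other kinases of the ULK family, ULK3 (listed as AC091230.1) had 221 and 288 reads in the IgG and LC3B inputs, 1284 with IgG and 268 with LC3B. It was 4.97-fold higher over the IgG input (4.31 to 5.76) and called lower with LC3B than with IgG at 0.198 (0.173 to 0.226). ULK4 and STK36 had 0 reads with IgG, like ULK1 and ULK2, and 75 and 53 with LC3B. Their lower interval bounds between the pull-downs were 18.8 and 13.1. ATG9B, the paralog of ATG9A, had 5, 7, 0 and 11 reads and did not pass the minimum.

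Of 15 regulators of ULK1 (subunits of the mTORC1 and AMPK kinases, the C9orf72 complex and AMBRA1), 7 were called higher and 3 lower with LC3B than with IgG, with a median log2 ratio of 0.21 against 0.41 for all genes. The shares over all genes, 33.8% and 9.45%, stand beside these counts and those of the lists that follow. SMCR8, of the C9orf72 complex, had 61 and 69 reads in the inputs of IgG and LC3B, 1 with IgG and 71 with LC3B, a fold of 67.2 whose interval (11.7 to 2692) rests on that 1 read. PRKAG2, a regulatory AMPK subunit, went the other way with 72 against 811 reads, a fold of 0.0841 (0.0651 to 0.107), and was 5.26-fold above its IgG input (4.37 to 6.37). Over the IgG input SMCR8 stood at 0.0140 (0.000349 to 0.0811). Over the LC3B input 0 of the 15 were called, with a median log2 ratio of -0.22.

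Of 10 genes of ATG9A vesicle traffic, 5 were called higher and 0 lower with LC3B than with IgG (median 1.26, against 0.41 for all genes). TBC1D14 had 179 against 0 reads there, with a lower interval bound of 45.5. Over the IgG input AP4M1, of the AP-4 adaptor, was called higher at 2.42 (2.07 to 2.83). TBC1D5 was called lower there, with 183 reads in that input, 0 with IgG and an upper interval bound of 0.0174. The 6 partners of ATG2 (WIPI proteins and the scramblases TMEM41B and VMP1) had 0 calls in each of the 4 comparisons, with a median of -0.32 between the pull-downs. Of the 6 genes of the PI3-kinase complex, 3 were called higher with LC3B than with IgG (median 0.78). UVRAG led with 120 against 0 reads (lower interval bound 30.3). PIK3C3, the lipid kinase, was called lower over the IgG input, with an upper interval bound of 0.0219. Of 16 tested genes for ATG8 proteins and their conjugation, 5 were higher with LC3B than with IgG (median 0.50). The protease ATG4D led with 283 against 0 reads (lower interval bound 72.2). Of 6 cargo receptors that bind the RB1CC1 protein, 2 were higher (median 0.94), led by NBR1 at 20.8 (11.9 to 39.5). Over the LC3B input 2 of these receptors were lower, CCPG1 at 0.4 (0.358 to 0.446) and TAX1BP1 at 0.464, where 4.48% of all genes were. Over the IgG input 3 of the 6 were lower, where 33.6% of all genes were. RB1CC1 was called lower over both inputs.

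Genes with the nearest pattern over the 4 libraries were looked up for the 7 members that passed, among genes within 2-fold of their mean input CPM. Likeness was the Euclidean distance between centred log2(CPM + 0.5) values, computed on 4 points among 2266 to 4340 candidates. Nearest to ATG101 were PIH1D1 (distance 0.14; 616 and 605 reads in the inputs, 380 with IgG and 1696 with LC3B) and EIF1B (0.15; 414, 396, 269 and 1120). RB1CC1 was nearest to MMD (0.10; 785, 762, 317 and 291) and CEP164P1 (0.11). For ATG13 these were ECSIT (0.10; 236, 196, 767 and 385) and MOSPD3 (0.11), and for ATG9A TMEM259 (0.03) and IGF1R (0.06). For the genes of few reads they were AC138761.1 (0.09) and PTCH1 (0.12) for ULK1, DIP2C (0.06) and AL591742.2 (0.08) for ULK2, and CHMP4B (0.14) and LINC02302 (0.15) for ATG2B.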

How the data were processed

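Read counts per Ensembl gene and TPM values were deposited by the authors for 4 libraries, per the file headers; TPM was scaled within each library with transcript lengths that no header states. The submitters' processing notes name cutadapt 2.8, STAR 2.7.1a and hg38. Counter, annotation release and strand setting: not given in the sources used here. Commas grouping digits were removed. Counts were divided by each total without mitochondrial genes. Folds have exact conditional binomial 95% intervals, which decide the calls, and 0 reads were set to 3 for point folds only. These intervals were computed for all genes and checked on simulated libraries (Python 3.11.15, scipy 1.17.1). The simulated counts carried counting error only, as the intervals assume. The check therefore bears on the computation and not on other variation in these libraries. The labels name no molecular identifiers, so copies of the same molecule may have been counted as separate reads. The intervals treat reads as independent and cover the counting error of reads only.

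Members and lists were chosen with earlier results of these data known. Named genes were the 8 members, the called gene of highest and of lowest point fold in each list and comparison (0 reads set to 3), and the 2 nearest patterns per member. Chosen after their values were seen were TAX1BP1, ATG9B, STK36 and some of the neighbouring genes within 1 kb. Alternatives were other scalings (TMM and median of ratios, in purpose-written code), filters, bounds, thinning, TPM and pseudocounts. ULK3 was matched by its NCBI gene number in RefSeq's table.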

Additional observations from a re-analysis of the deposited data

Results flagged for a closer look

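ATG101 was the member whose recovery relative to input lay on opposite sides of 1 for the 2 antibodies, with counting intervals that both exclude 1. It stood at 2.66 with LC3B (2.35 to 3.02) and at 0.530 with IgG (0.448 to 0.626), a ratio of 5.02. Of all genes, 77.6% had a smaller ratio. With 1 library for each antibody this difference was not tested across samples. The overlapping AC025259.1 had the same pattern, with 2.53 and 0.606.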

How the results depend on the processing

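No paired analysis was possible because, between LC3B and IgG, each antibody holds 1 pull-down and 1 input and no residual degrees of freedom are left; a fit of pull-downs against inputs over both antibodies would take the antibodies as replicates and was not run. ATG101 was called higher and RB1CC1 lower over the LC3B input, and ATG13 higher over the IgG input, under every alternative except bounds of 4 and 0.25, which left 0 of each. With those bounds ATG101 also lost its call between the pull-downs, where ULK1 and ULK2 were the 2 higher and 0 were lower, and there was 1 lower over the IgG input (ULK1) and 1 higher in the input-corrected ratio (ATG101). With mitochondrial reads in the totals 1 was lower over the IgG input (ULK1). With that total, TMM or median-of-ratios scaling, ULK2 fell to 0.984, 0.995 and 0.987 CPM and was not tested, and 1 was higher in the input-corrected ratio (ATG101). A filter of 5 CPM left 1 higher between the pull-downs, 1 lower over the IgG input (RB1CC1) and 1 higher in the input-corrected ratio. Point folds without intervals, and deposited TPM, added ATG2B, giving 2 lower between the pull-downs and 2 lower over the LC3B input; in the input-corrected ratio 1 was lower with point folds (ATG2B) and 3 with TPM (RB1CC1, ATG13 and ATG2B). In TPM, ATG101 replaced RB1CC1 among the 3 lower over the IgG input. Calls in TPM were made on point folds without an interval, so the rule changed there along with the unit. No called fold changed direction under any alternative run. Against the other input, a comparison added after seeing the data, the same genes were called, and adding 1 in place of 0.5 to each count, also chosen after seeing the data, left the input-corrected calls at 2 higher and 0 lower. Depth limits ULK1, ULK2, ATG2A and ATG2B, with at most 37 reads in a library.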

Other observations

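Reads per deposited TPM were unstable for members of few reads. ATG2A had 8 and 20.8 in the inputs of IgG and LC3B and 47.1 with LC3B, from 4, 5 and 8 reads, and ULK2 had 18.2, 8.26 and 13.7 from 14, 10 and 18 reads. ULK1, at 52.8, 52.9 and 53.3, and ATG2B, between 127 and 140.0, did not vary in this way. TPM of ATG2A fell from 0.50 to 0.17 between the IgG input and the LC3B pull-down while its reads went from 4 to 8.

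RPTOR, the mTORC1 subunit that binds ULK1, was picked out after its values were seen. It had 15 and 12 reads in the IgG and LC3B inputs, 0 with IgG and 53 with LC3B, and a fold over the LC3B input of 3.64 (1.92 to 7.48), just short of a call.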
